A study of Mus musculus with 6 samples.

Results

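The genes described here encode the enzymes that make cholesterol and long-chain fatty acids, together with the proteins that control their transcription. The list named 33 genes by their place in the pathway and was drawn up with earlier results of these data known: 18 enzymes of the sterol branch, 11 genes of the fatty acid branch and 4 genes of sterol regulation and transport. A probe set that names a single gene measured 32 of them, out of 19938 genes measured in this way. *Acat2*, an enzyme at the entry of the sterol branch, was not analysed here. Signals came from microarrays of RNA from the esophageal epithelium of 6 mice aged 3 months on a mixed genetic background, 1 animal per array. In the 3 mice labelled mutant, both copies of the transcription factor gene *Klf4* were floxed (flanked by loxP sites) and the ED-L2-Cre transgene was present. The ED-L2 promoter drives Cre in squamous epithelium. The 3 controls were sex-matched littermates that carried the same floxed alleles without the transgene. Replicate 1 was male and replicates 2 and 3 were female in both genotypes.

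Cells make cholesterol from acetyl-CoA through mevalonate, squalene and lanosterol, and make fatty acids from the same acetyl-CoA through malonyl-CoA. The membrane-bound factors encoded by *Srebf1* and *Srebf2* (SREBPs) switch on both branches. *Srebf2* acts mainly on sterol genes, and the main lipogenic form of *Srebf1* acts mainly on fatty acid genes. When sterol is plentiful, the INSIG proteins hold the SREBPs in the endoplasmic reticulum, where they stay inactive. In stratified squamous epithelium, cholesterol and long-chain fatty acids join ceramides as lipids of the surface barrier.

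The targeted gene was examined before the pathway. *Klf4* read 10.28, 10.50 and 10.28 on the log2 scale in mutant mice, against 9.75, 10.15 and 10.06 in controls. Every array labelled mutant read above every control array, so the signal was not lower where the gene should be deleted (difference 0.37 ± 0.13, SE; limma adjusted p = 0.314). The sources used here do not say which part of the gene Cre removes or where the probes lie. If the probes lie outside that part, their signal cannot check the labels. All directions below rest on the labels, and "mutant" means labelled mutant. For the tissue label, the 12 squamous epithelial markers had array means between 11.55 and 11.66, the gastric and intestinal list between 4.15 and 4.61 and the hepatocyte list between 3.30 and 3.45. Probes of different genes differ in affinity, so these levels are given side by side and not compared. Striated muscle markers read high on some arrays and differed widely between them. The 10 skeletal muscle markers had array means of 9.16, 8.60 and 6.21 in mutants 1, 2 and 3. In controls 1, 2 and 3 these means were 6.14, 10.51 and 9.57, so the RNA was not from epithelium alone. Values of these markers relative to gene means stand beside the results they touch. In bulk RNA, fewer cells of a type and less RNA per cell cannot be told apart.

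The comparison asked whether cholesterol and fatty acid synthesis genes differed between the mutant and the control epithelium. No gene of the list passed an adjusted p of 0.05 in limma (0 of 32), where 1.04% of all genes passed. At an unadjusted p under 0.05, 6 of the 32 were past the threshold (18.8%), against 12.4% of all genes: *Pmvk*, *Idi1* and *Stard4* on the higher side, and *Dhcr7*, *Srebf1* and *Acly* on the lower side. The groups did not overlap for 7 of the 32 (21.9%), against 18.1% of all genes. Of these, 4 were higher in mutant mice (10.1% of all genes were) and 3 lower (8.0% of all genes were). The median difference, mutant minus control, was -0.016 on the log2 scale over the 17 sterol genes and -0.18 over the 11 fatty acid genes, beside 0.022 over all genes. Of the sterol genes, 8 read higher and 9 lower, and of the fatty acid genes 3 read higher and 8 lower. The 95% interval of the difference lay wholly within a 2-fold change in either direction for 31 of the 32 genes, the exception being *Dhcr7*. The same held for 93.8% of all genes. Within a 1.5-fold change it held for 12 of 17 sterol genes and 4 of 11 fatty acid genes, against 78.1% of all genes. These intervals are not adjusted for the number of genes.

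**Figure D1:**
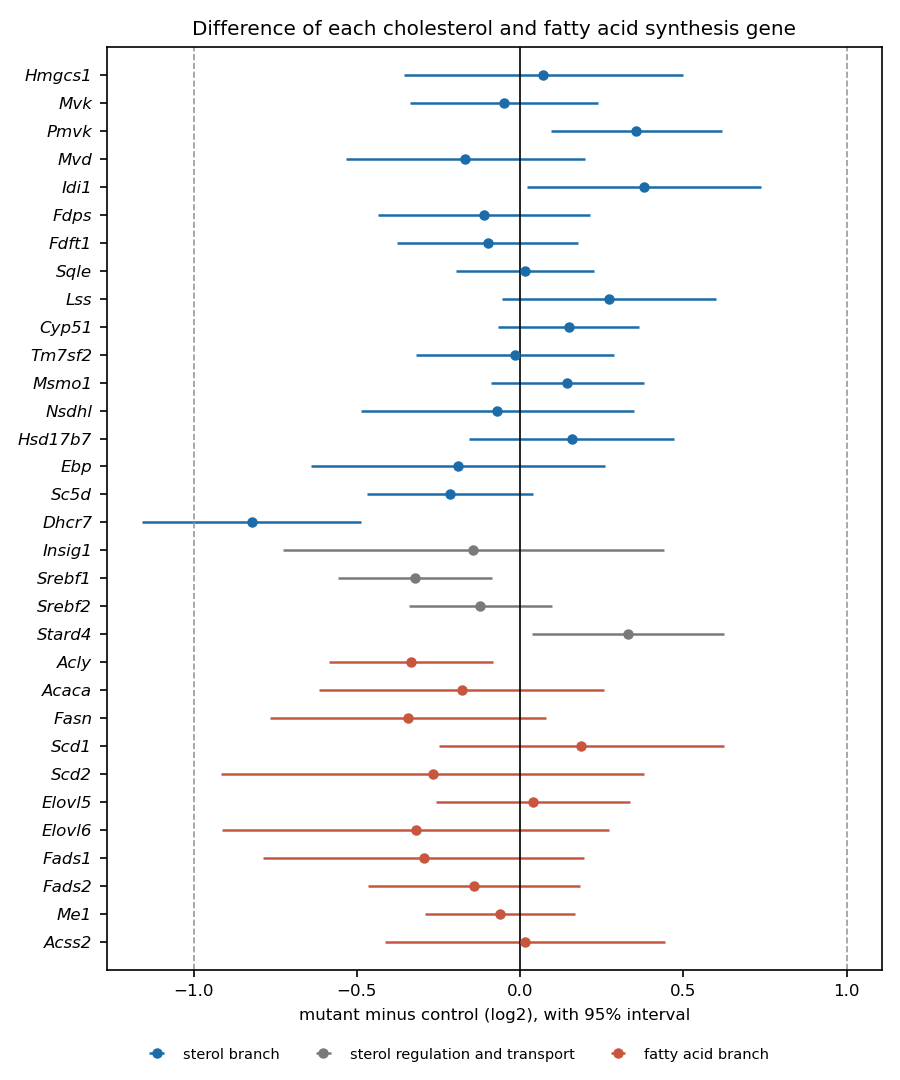
Difference between mutant and control arrays (log2, horizontal axis) for each of the 32 genes in pathway order, with its 95% interval from limma (bars) and a dashed line at a 2-fold change each way. *Dhcr7* lies farthest from 0, at -0.82, and its interval alone crosses a dashed line.

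The largest difference belonged to *Dhcr7*, whose product catalyses the last step of the branch, the reduction of dehydrocholesterol to cholesterol. It read 8.09, 8.59 and 8.36 in mutant mice, against 9.29, 9.05 and 9.16 in controls. All 3 mutant values lay below all 3 control values. The gap between the groups was wider than the range of the controls and slightly narrower than the range of the mutants. The difference was -0.82 ± 0.14 (SE; 0.57-fold, 95% interval -1.16 to -0.49), and its limma adjusted p of 0.0518 just missed the threshold. The adjusted p ranged from 0.0310 to 0.9999 over 19 alternative settings and was under the threshold in 5 of them. The upper end came from a fit with the mean of fibroblast markers as a covariate. That mean nearly followed genotype, so the fit could hardly separate them. With 1 array left out it was between 0.0593 and 0.203, and the difference between -0.94 and -0.69.

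The enzymes from acetoacetyl-CoA to the isoprenoid building blocks gave small differences of both signs. *Hmgcs1*, which forms HMG-CoA, read 10.53, 10.33 and 10.84 in mutant mice and 10.54, 10.18 and 10.77 in controls. The groups overlapped almost fully (difference 0.071 ± 0.18, SE). The mevalonate kinase gene *Mvk* differed by -0.051 ± 0.12 and *Mvd*, which decarboxylates the mevalonate product, by -0.17 ± 0.16. *Pmvk*, the kinase that acts after *Mvk*, read 7.95, 7.93 and 7.99 in mutant mice and 7.76, 7.41 and 7.64 in controls. Every mutant value was above every control value, and the difference was 0.36 ± 0.11 (limma adjusted p = 0.237). *Idi1*, which interconverts the isoprenoid building blocks, read 10.33, 10.16 and 10.64 in mutant mice and 9.97, 9.82 and 10.19 in controls. Mutant 2 lay just under control 3, so the groups overlapped, and the difference of 0.38 ± 0.15 did not pass (limma adjusted p = 0.368). A further probe set of *Idi1* gave 0.30 ± 0.16.

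**Figure D2:**
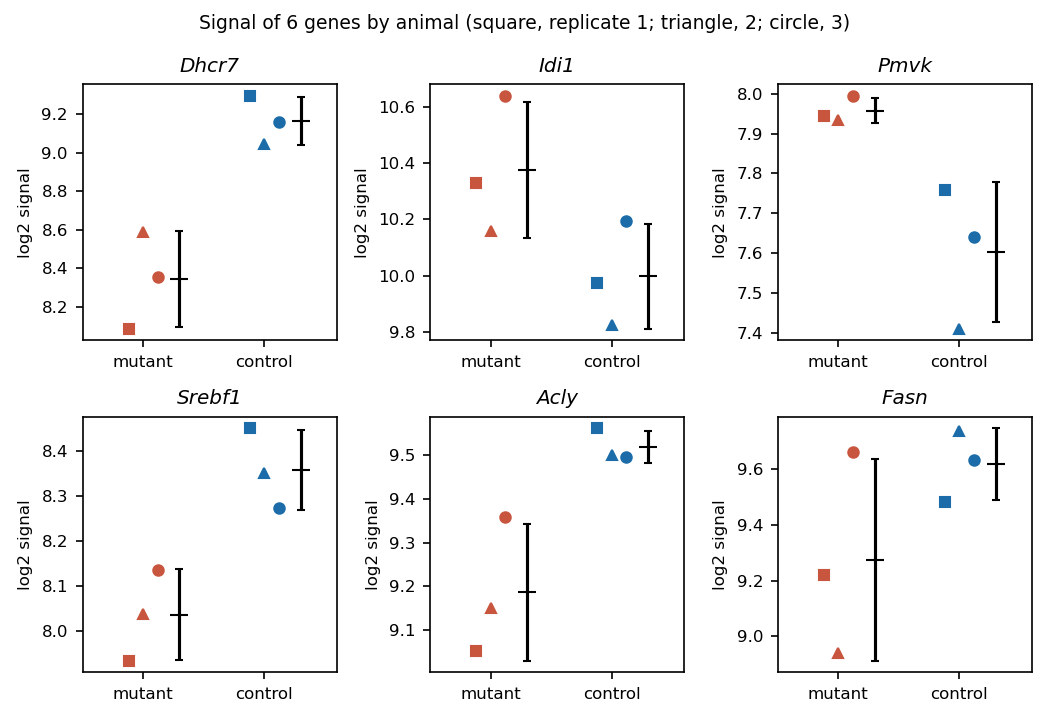
Log2 signal (vertical axis, its own range in each panel) of 6 genes in each mutant and control animal, with the mean and SD beside the points (n = 3). *Dhcr7*, *Srebf1* and *Acly* are lower and *Pmvk* higher in all mutant than in all control animals, while *Idi1* and *Fasn* overlap.

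Of the genes from farnesyl diphosphate to lanosterol, *Fdps*, *Fdft1* and *Sqle* overlapped the controls, while *Lss* read higher in mutant mice. *Fdps*, which makes farnesyl diphosphate, differed by -0.11 ± 0.14, and the squalene synthase gene *Fdft1* by -0.10 ± 0.12. *Sqle*, the squalene epoxidase and a rate-limiting step of the branch, read 9.69, 9.66 and 9.68 in mutant mice and 9.70, 9.58 and 9.72 in controls. It had the smallest standard error of the list (0.091), with a difference of 0.014 and a 95% interval from -0.20 to 0.22. *Lss*, which closes the sterol rings to form lanosterol, read 9.10, 9.08 and 9.36 in mutant mice and 9.04, 8.65 and 9.02 in controls. The groups did not overlap, but the difference of 0.27 ± 0.14 did not pass (limma adjusted p = 0.502).

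The enzymes that turn lanosterol into cholesterol likewise gave mixed signs. *Cyp51*, the lanosterol demethylase, read 9.15, 9.21 and 9.28 in mutant mice and 9.08, 8.99 and 9.13 in controls, a separation of the groups by a small margin (difference 0.15 ± 0.093; limma adjusted p = 0.609). *Msmo1* and *Nsdhl*, which act together to remove methyl groups from the sterol ring, differed by 0.14 ± 0.10 and -0.070 ± 0.18. *Hsd17b7*, the ketoreductase of the same complex, differed by 0.16 ± 0.14, and the sterol reductase gene *Tm7sf2* by -0.016 ± 0.13. *Ebp*, the sterol isomerase, read 9.12, 9.66 and 9.86 in mutant mice and 9.88, 9.57 and 9.76 in controls. Mutant 1 alone lay below the controls (difference -0.19 ± 0.19). *Sc5d*, the desaturase one step before *Dhcr7*, differed by -0.22 ± 0.11 (limma adjusted p = 0.490). Set side by side, the 95% interval of *Dhcr7* ended at -0.49, and the differences of the other 16 sterol genes all lay above that, the lowest being that of *Sc5d*. The 95% intervals of some of these genes reached below -0.49, such as those of *Ebp* (-0.64 to 0.26) and *Mvd* (-0.53 to 0.20). *Dhcr7* was singled out for its low value, and the difference between *Dhcr7* and the other genes was not itself tested.

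Promoter windows from RefSeq (build GRCm38.p6, 250 bases before to 50 after an annotated start) were found for 26 of the 33 listed genes. Shown are the sterol gene with the lowest difference (*Dhcr7*, 2 of its 3 windows), the sterol gene with the highest (*Idi1*), the fatty acid gene with the lowest (*Fasn*), and *Hmgcs1*, the only listed gene whose window held the SREBP element as searched. Sequences run 5′ to 3′ on the strand of the gene. Capitals mark matches, on either strand, to TCACNCCAC (SREBP element), CCAAT (bound by NF-Y), GGGCGG (bound by Sp1), GGGNGTGG (KLF4-type element) and CACGTG (E-box). N stands for any base, and where matches overlap a single run of capitals holds them.
Dhcr7, chr7:143822917-143823216, plus strand: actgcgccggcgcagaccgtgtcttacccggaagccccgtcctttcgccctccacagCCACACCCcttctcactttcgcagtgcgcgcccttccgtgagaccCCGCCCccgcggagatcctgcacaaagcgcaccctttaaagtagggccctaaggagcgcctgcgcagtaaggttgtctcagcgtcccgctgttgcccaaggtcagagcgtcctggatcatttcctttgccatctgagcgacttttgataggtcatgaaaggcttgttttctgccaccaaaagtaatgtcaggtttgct
Dhcr7, chr7:143829964-143830263, plus strand: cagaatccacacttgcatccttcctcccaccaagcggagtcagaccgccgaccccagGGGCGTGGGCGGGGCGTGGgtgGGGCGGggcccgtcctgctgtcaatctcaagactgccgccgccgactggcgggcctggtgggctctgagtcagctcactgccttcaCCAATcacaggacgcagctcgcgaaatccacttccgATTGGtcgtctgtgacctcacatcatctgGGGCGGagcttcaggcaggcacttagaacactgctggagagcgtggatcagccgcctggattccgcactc
Idi1, chr13:8885356-8885655, plus strand: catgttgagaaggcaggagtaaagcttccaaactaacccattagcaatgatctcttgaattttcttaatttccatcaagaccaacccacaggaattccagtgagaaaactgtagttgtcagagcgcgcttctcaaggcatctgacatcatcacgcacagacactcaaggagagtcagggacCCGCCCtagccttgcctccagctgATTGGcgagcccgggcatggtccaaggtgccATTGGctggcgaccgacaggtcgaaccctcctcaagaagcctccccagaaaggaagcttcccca
Hmgcs1, chr13:119690101-119690400, plus strand: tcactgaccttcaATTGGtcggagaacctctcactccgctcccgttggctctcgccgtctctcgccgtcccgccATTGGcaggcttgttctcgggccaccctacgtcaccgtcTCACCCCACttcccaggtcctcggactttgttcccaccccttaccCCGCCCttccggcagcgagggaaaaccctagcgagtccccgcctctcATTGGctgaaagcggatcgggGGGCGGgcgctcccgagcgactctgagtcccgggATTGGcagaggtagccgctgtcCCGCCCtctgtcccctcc
Fasn, chr11:120824498-120824797, minus strand: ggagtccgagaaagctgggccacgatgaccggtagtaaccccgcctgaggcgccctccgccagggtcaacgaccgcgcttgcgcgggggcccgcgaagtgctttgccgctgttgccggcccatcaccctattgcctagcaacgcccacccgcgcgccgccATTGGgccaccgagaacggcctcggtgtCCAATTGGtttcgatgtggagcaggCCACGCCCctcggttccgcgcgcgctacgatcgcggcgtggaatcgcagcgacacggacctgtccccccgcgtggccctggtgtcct

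The upstream *Dhcr7* window held 1 KLF4-type and 1 Sp1 match, and the downstream one held 2 KLF4-type, 3 Sp1 and 2 CCAAT matches, some of them overlapping. *Hmgcs1*, which hardly differed between the groups, held 1 SREBP, 4 CCAAT and 3 Sp1 matches and no KLF4-type match. *Idi1* held 2 CCAAT matches and 1 Sp1 match, and *Fasn* held 3 CCAAT matches and 1 KLF4-type match. The *Dhcr7* window not shown held 1 E-box match and no match to the other elements. KLF4-type matches also lay in windows of *Lss*, *Msmo1* and *Hsd17b7*, which read higher in mutant mice. They lay as well in windows of *Mvd* and *Srebf1*, which read lower, and of *Acat2*, which was not analysed. Over all windows of the listed genes, 71.9% of 32 windows held CCAAT and 71.9% held GGGCGG, beside 37.4% and 35.7% of all 32851 windows. The KLF4-type element was in 28.1% of the windows of listed genes and 17.6% of all windows, and the SREBP element in 3.12% and 1.24%. The E-box was in 15.6% and 7.15%. Windows of the same gene can overlap, a match in a window is no evidence of binding, and these shares carry no test.

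Of the 4 genes of sterol regulation and transport, the carrier gene *Stard4* read higher in mutant mice and the other 3 read lower. *Srebf1* read 7.93, 8.04 and 8.14 in mutant mice, against 8.45, 8.35 and 8.27 in controls. Every mutant value was below every control value, and the difference of -0.32 ± 0.10 did not pass (limma adjusted p = 0.232). *Srebf2* read 9.93, 10.00 and 10.12 in mutant mice and 10.17, 10.14 and 10.11 in controls, with mutant 3 inside the range of the controls (difference -0.12 ± 0.094). *Stard4*, which carries cholesterol between membranes and is itself an SREBP target, read 7.907, 7.804 and 8.004 in mutant mice and 7.522, 7.406 and 7.797 in controls. The groups were separate by a narrow gap (difference 0.33 ± 0.13; limma adjusted p = 0.337). *Insig1*, which retains the SREBPs and is also one of their targets, read 9.19, 8.64 and 8.89 in mutant mice and 8.94, 8.61 and 9.58 in controls. Control 3 stood well above the other 5 arrays, and the difference was -0.14 ± 0.25.

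In the fatty acid branch, 8 of 11 genes read lower in mutant mice, by at most 0.34 on the log2 scale, and none passed. *Acly*, which releases cytosolic acetyl-CoA from citrate and so feeds both branches, read 9.05, 9.15 and 9.36 in mutant mice and 9.56, 9.50 and 9.50 in controls. It was the only fatty acid gene with separate groups (difference -0.33 ± 0.11; limma adjusted p = 0.249), 1 of 11 or 9.09%, against 18.1% of all genes. *Fasn*, the fatty acid synthase, read 9.22, 8.94 and 9.66 in mutant mice and 9.48, 9.74 and 9.63 in controls. Mutant 3 lay among the controls, and the difference was -0.34 ± 0.18 (limma adjusted p = 0.515). *Acaca*, which makes malonyl-CoA, read 8.04, 8.59 and 8.77 in mutant mice and 8.55, 8.78 and 8.60 in controls, so that mutant 1 alone stood apart (difference -0.18 ± 0.19). *Acss2*, which makes acetyl-CoA from acetate, and *Me1*, which supplies NADPH, differed by 0.014 ± 0.18 and -0.063 ± 0.099.

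Among the genes that elongate and desaturate fatty acids, the SD between mutant mice exceeded the size of the difference from controls. *Scd2*, a stearoyl-CoA desaturase, read 9.20, 9.70 and 10.43 in mutant mice and 10.04, 9.91 and 10.18 in controls. The mutant values spanned both sides of the controls (difference -0.27 ± 0.28). Its paralog *Scd1* read 6.67, 7.27 and 7.25 in mutant mice and 6.65, 6.93 and 7.04 in controls, with a difference of the opposite sign, 0.19 ± 0.19. *Elovl6*, which lengthens saturated chains, read 9.48, 10.15 and 10.59 in mutant mice and 10.54, 10.27 and 10.36 in controls, with mutant 1 far below the rest (difference -0.32 ± 0.25). The elongase gene *Elovl5* differed by 0.040 ± 0.13. The desaturase genes *Fads1* and *Fads2*, which act on polyunsaturated chains, differed by -0.30 ± 0.21 and -0.14 ± 0.14.

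**Figure D3:**
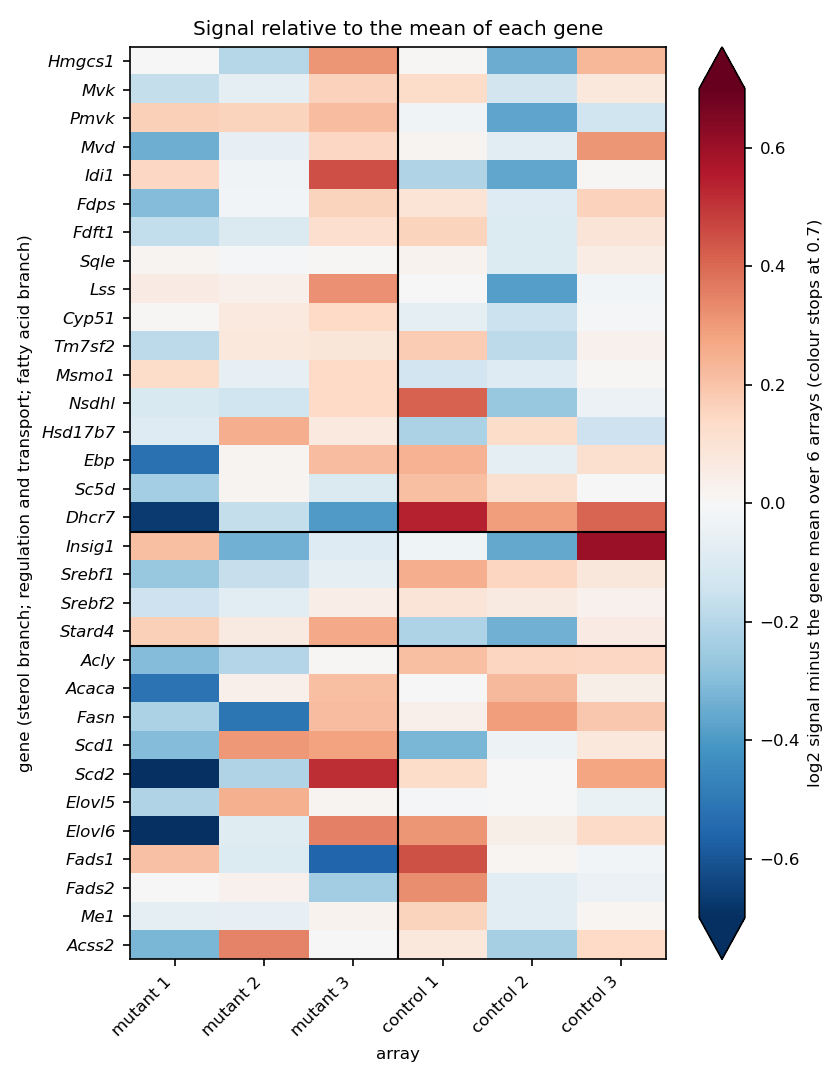
Log2 signal of each gene relative to its own mean over the 6 arrays (colour scale, which stops at 0.7 each way), with mutant arrays left of the line and genes in pathway order. The column of mutant 1 is blue for most fatty acid genes, and the row of *Dhcr7* changes colour at the line between the groups.

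Single animals set much of the pattern. The mean of the sterol genes, relative to each gene's mean over the arrays, was -0.13, -0.013 and 0.13 in mutants 1, 2 and 3 and 0.080, -0.13 and 0.067 in controls 1, 2 and 3. Mutant 1 was the lowest array for 7 of the 17 sterol genes and control 2 for 8, while mutant 3 was the highest for 7 and control 1 for 6. For the fatty acid genes the means were -0.29, -0.017 and 0.075 in mutants and 0.12, 0.027 and 0.083 in controls, and mutant 1 was the lowest array for 6 of 11. Without mutant 1, the median difference of the fatty acid genes was -0.024 in place of -0.18. Mutant 1 is the mutant male. Between the male pair, 1 animal each, the median difference was -0.32 over the fatty acid genes and -0.30 over the sterol genes. In the 4 females it was 0.013 and 0.097. As an interaction of sex and genotype in limma, 0 of the 32 genes passed (smallest adjusted p = 0.624), against 9 of all 19938 genes. At an unadjusted p under 0.05 were *Elovl6* and *Ebp*, or 6.25% of the 32, against 5.82% of all genes. The male arm held 1 animal per genotype, so the spread came from the females alone, the lone males were assumed to vary like them, and the result does not show that the sexes were alike.

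The arrays also differed in markers of cell types other than the epithelium. The mean of the 10 skeletal muscle markers, relative to gene means, was 0.79, 0.24 and -2.15 in mutants 1, 2 and 3 and -2.22, 2.14 and 1.21 in controls 1, 2 and 3. Control 2, the highest of these, had nearly the lowest sterol mean, and mutant 3 and control 1, the lowest, had the highest sterol means. Control 3, with the next highest muscle mean, did not follow this. Its sterol mean of 0.067 was close to that of control 1, 0.080. The relation of the muscle and sterol means was not tested. With the muscle mean as a covariate, an alternative chosen after seeing the data, the median difference was -0.068 for sterol genes and -0.20 for fatty acid genes, and *Dhcr7* differed by -0.86 (limma adjusted p = 0.0358). The 2 skeletal muscle markers with the smallest p, *Myh2* and *Mylpf*, differed by -0.61 ± 0.46 and -0.99 ± 1.12. The mean of the 11 fibroblast markers was -0.57, -0.43 and -0.51 in mutants and 0.046, 0.70 and 0.76 in controls, with no overlap. All 11 read lower in mutants (median difference -1.10) and 3 passed, where 0.672% of all genes passed on the lower side, among them the collagen gene *Col1a2* (-1.30 ± 0.19; limma adjusted p = 0.0274) and the matrix gene *Sparc* (-1.10 ± 0.17; adjusted p = 0.0312). Both of these calls were lost on leaving out any 1 array except control 1. With the fibroblast mean as a covariate, also chosen after seeing the data, the medians were -0.048 for sterol genes and -0.16 for fatty acid genes. *Dhcr7* then differed by -0.97 with an adjusted p of 0.9999, and 7 of all genes passed in that fit, against 207 without the covariate. The fibroblast mean nearly followed genotype, so that fit could hardly separate them, and nothing is concluded from it.

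Markers of lipid-rich cells were also compared, since adipocytes and sebocytes make much lipid. The 11 sebocyte markers measured had array means of 5.75, 6.12 and 5.89 in mutant mice and 5.62, 5.42 and 5.53 in controls. Of the 11, 9 read higher and 2 lower in mutant mice. Groups were separate for 4 of them, all higher (36.4%, against 18.1% of all genes separate in either direction). Without *Plin2*, the means were 5.28, 5.68 and 5.47 in mutant mice and 5.29, 5.07 and 5.20 in controls. The groups then overlapped, with mutant 1 just under control 1. *Plin2*, which coats lipid droplets in many cell types, read 10.46, 10.47 and 10.10 in mutant mice and 8.99, 8.93 and 8.90 in controls. It rose by 1.40 ± 0.12 (2.64-fold; limma adjusted p = 0.00595, where 0.366% of all genes passed on the higher side), while *Awat2*, a wax ester synthase gene, differed by 0.94 ± 0.17 (adjusted p = 0.0626). Of the 11 sebocyte markers, 4 lay under the 40th percentile of all genes (4.72) on every array (*Mc5r*, *Awat1*, *Scd3* and *Elovl3*) and 4 lay above it on every array (*Far2*, *Mgst1*, *Plin2* and *Cidea*). *Mgst1* was separate and higher in mutant mice (0.60 ± 0.15; adjusted p = 0.129). The 11 adipocyte markers had array means of 5.493, 5.580 and 5.373 in mutant mice and 5.003, 5.295 and 5.207 in controls. None passed (1.04% of all genes did), and groups were separate for 2 of the 11, both higher (18.2%, against 18.1% of all genes separate in either direction). Without *Fabp4* the means were 5.272, 5.304 and 5.276 in mutant mice and 5.022, 5.297 and 5.218 in controls, and the groups overlapped. *Fabp4*, a fatty acid carrier, read 7.70, 8.33 and 6.35 in mutant mice and 4.81, 5.27 and 5.10 in controls (difference 2.40 ± 0.44; adjusted p = 0.0630, and 0.00880 without mutant 3 but 0.119 to 0.222 without any other array). *Cidea*, a lipid droplet gene on both lists, differed by 0.71 ± 0.18 (adjusted p = 0.150). Of the 11 adipocyte markers, 3 lay under the 40th percentile on every array (*Adipoq*, *Lep* and *Retn*) and 4 above it on every array (*Cidea*, *Fabp4*, *Lipe* and *Pparg*). The part of these markers in the synthesis genes was not tested.

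Other marker lists gave these values for the 2 genes with the smallest p. Among squamous markers *Evpl*, a cornified envelope gene, fell by 1.03 on the log2 scale (limma adjusted p = 0.0370) and *Sox2* differed by 0.51 ± 0.16. Among leukocyte markers *Cd68* rose by 1.11 ± 0.17 (adjusted p = 0.0304) and *Lyz2* fell by 1.57 (adjusted p = 0.0464). The *Evpl* call was lost without any 1 array except mutant 1, the *Cd68* call without any except mutant 1, and the *Lyz2* call without any except control 1. In smooth muscle *Tagln* and *Cnn1* differed by -0.89 ± 0.17 and -1.09 ± 0.21. The mean of the smooth muscle list, relative to gene means, was also separate: -0.38, -0.001 and -0.69 in mutants and 0.16, 0.72 and 0.20 in controls. Of its 10 genes 9 read lower (median difference -0.81) and none passed (1.04% of all genes did). Groups were separate for 6 of the 10 (60.0%, against 18.1% of all genes), 5 lower and 1 higher. In endothelium *Emcn* and *Tek* differed by 0.30 ± 0.12 and -0.72 ± 0.30. *Muc2* and *Pgc* of the gastric and intestinal list differed by 0.12 ± 0.093 and -0.81 ± 0.75, where *Pgc* turned to 0.20 without control 3, and *Alb* and *Cyp7a1* of the hepatocyte list by -0.32 ± 0.15 and 0.078 ± 0.095.

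**Figure D4:**
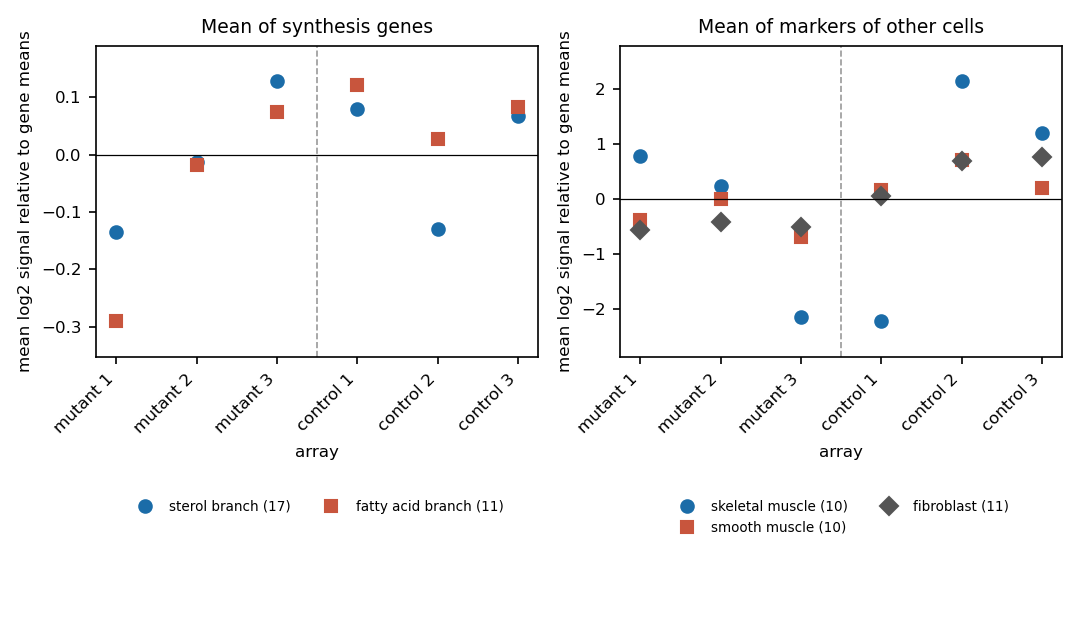
Mean log2 signal relative to gene means (vertical axes, on different scales) for the sterol and fatty acid genes (left panel) and for markers of skeletal muscle, smooth muscle and fibroblasts (right panel), with mutant arrays left of the dashed line. Numbers of genes stand in brackets. The sterol mean is low in mutant 1 and control 2, and the fibroblast and smooth muscle means are lower in all mutant than in all control arrays.

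Other genes of the pathway, from lists outside the 33, gave the following counts. Of 8 other sterol and isoprenoid genes measured, none passed (1.04% of all genes did) and 3 had an unadjusted p under 0.05 (37.5%, against 12.4% of all genes). *Idi2*, a paralog of *Idi1*, read 6.42, 5.81 and 3.96 in mutant mice, against 3.12, 3.19 and 3.15 in controls. All controls were under the 40th percentile of all genes, and mutant 3 was also under it, while mutants 1 and 2 stood far above. The difference of 2.25 ± 0.54 had a limma adjusted p of 0.126, of 0.00507 without mutant 3 and of 0.201 to 0.366 without any other array. With the controls this dim, its size is uncertain. Cross-hybridisation between the paralogs was not tested, and both *Idi1* probe sets differed by far less. *Nus1*, a subunit of the enzyme that makes dolichol, read 9.21, 8.80 and 8.51 in mutant mice and 8.39, 7.91 and 7.99 in controls (difference 0.74 ± 0.20; limma adjusted p = 0.168).

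Of the 9 genes measured on the list of other SREBP pathway genes, which again holds *Srebf1* and *Srebf2*, none passed (1.04% of all genes did) and 7 read lower. At an unadjusted p under 0.05 were 4 of the 9 (44.4%, against 12.4% of all genes). Groups were separate for 5 of the 9 (55.6%, against 18.1% of all genes), 2 higher and 3 lower. *Gpam*, which starts glycerolipid synthesis and is an SREBP target, read 7.74, 8.29 and 7.82 in mutant mice and 8.41, 8.59 and 8.35 in controls (difference -0.50 ± 0.16; limma adjusted p = 0.246). Of 25 other genes of fatty acid synthesis and elongation, 1 passed and fell (0.672% of all genes passed on the lower side). This was *Pnpla3*, a lipid droplet acyltransferase and lipase gene induced by *Srebf1* in liver, which read 5.39, 6.04 and 6.19 in mutant mice and 7.71, 7.80 and 8.17 in controls. The groups lay far apart, with a difference of -2.02 ± 0.22 (0.25-fold; limma adjusted p = 0.0118). The call was lost without control 3 (adjusted p = 0.0582), while the difference stayed between -2.18 and -1.78 with any 1 array left out. The median of that list was 0.031.

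The sterol efflux, storage and LXR target list had no passing member among 16 (1.04% of all genes passed), with a median of -0.16 and 11 genes lower. Groups were separate for 5 of the 16 (31.2%, against 18.1% of all genes), 2 higher and 3 lower. *Abca1*, which exports cholesterol to lipoproteins and is induced by the sterol sensor LXR, read 5.58, 6.35 and 5.76 in mutant mice and 6.61, 6.71 and 6.90 in controls. The groups were separate, and the difference of -0.84 ± 0.20 had a limma adjusted p of 0.119 (0.0429 without mutant 2, and 0.157 to 0.387 without any other array). *Cav1*, a membrane protein of cholesterol-rich caveolae that fibroblasts also express, differed by -0.45 ± 0.12 (adjusted p = 0.162). On the fatty acid oxidation list none of 18 genes passed, 9 read higher and 9 lower, and the median was -0.035. Groups were separate for 3 of the 18 on this list (16.7%, against 18.1% of all genes). *Ppard*, a nuclear receptor for fatty acids, and *Eci1*, an isomerase of fatty acid oxidation, had its smallest p-values, with differences of 0.27 ± 0.11 and -0.25 ± 0.11.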

How the data were processed

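Esophageal RNA of 6 mice was hybridised as biotinylated cRNA, made from oligo(T)-primed cDNA per the labels' protocols. The authors deposited 1 log2 value per array for each of 28853 probe sets. Per the submitters' processing notes Partek 6.4 was used; background correction and normalization were not given in the sources used here. The log2 scale was inferred from the values (array medians 5.01 to 5.13). How those unknown steps shape dim signals is unknown.

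A single gene was assigned to 21789 probe sets and several genes to 1621, while 5443 had no name here. Symbols were updated by Entrez identifier against the GRCm38.p6 gene table (21698 matched, 91 kept theirs). For the 999 genes with several probe sets the one with the highest mean was used, leaving 19938 genes.

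Genotypes were compared with limma 3.58.1 (lmFit, eBayes) in R 4.3.3 without covariates, in a two-sided test with 7.58 degrees of freedom once variances were moderated (4 before). Benjamini-Hochberg adjustment covered all 19938 genes. Errors are moderated standard errors, and the number of arrays limits precision. The steps were tested on simulated data. Each array is 1 labelled animal. Members, lists and tests were chosen with earlier results of these data known. Named genes are the measured members, *Klf4*, the passing genes (or else the 2 with the smallest p) of each other pathway list, and the 2 markers with the smallest p of each cell type. The other sebocyte and adipocyte markers were named, and marker means without 1 marker computed, after their values were seen.

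Alternatives were other scaling (quantile, median centring), dim genes left out, other handling of probe sets (mean per gene, those of several genes kept), a replicate block, a sex term, other variance models (intensity trend, none moderated, array weights), 1 array left out, and females only. Covariates for skeletal muscle and fibroblast markers were chosen after seeing the data. Plots used matplotlib 3.10.9.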

Additional observations from a re-analysis of the deposited data

How the results depend on the processing

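With 3 animals per genotype, the width of the reported intervals limits which differences could be detected. Of 608 values of the 32 genes under alternatives, 568 kept both direction and side of the threshold, 5 passed where the main value had not, and 35 changed sign, each of them under 0.16 in size; the cause was not tested. The 5 were all of *Dhcr7*: 1 sterol gene passed with quantile normalization (-0.82, adjusted p = 0.0486), without dim genes (0.0474), with an intensity trend (0.0425), with array weights (0.0310) and with the skeletal muscle mean as a covariate (0.0358), and 0 in all other settings. No fatty acid gene passed in any setting. The median of the sterol genes stayed between -0.11 and 0.097 in all settings, and that of the fatty acid genes between -0.21 and -0.024 with 1 array left out and at 0.013 in the females alone.

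The count over all genes was 207, and 81 with the replicate block, 7 without moderation, 370 with array weights, 83 in the females alone, 313 with the muscle mean, 7 with the fibroblast mean and between 44 (without control 3) and 193 (without control 1) with 1 array left out. With the replicate block, 0 sterol and 0 fatty acid genes passed. Deviations of same-numbered animals correlated at -0.17, 0.090 and -0.10 for replicates 1, 2 and 3, so the numbers were not taken as pairs. No animal correlated best with the animal of its own number.

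Sign changes were these, and those with the fibroblast mean come from a fit that could hardly separate that mean from genotype. With array weights *Hmgcs1* was -0.0945, *Sqle* -0.015 and *Acss2* -0.040. With median centring *Tm7sf2* was 0.0063. In the females alone *Mvk* was 0.072, *Fdps* 0.034, *Fdft1* 0.014, *Tm7sf2* 0.16, *Nsdhl* 0.15, *Ebp* 0.097, *Scd2* 0.016, *Elovl6* 0.050 and *Me1* 0.013. With the muscle mean *Acss2* was -0.017. With the fibroblast mean *Hmgcs1* was -0.021, *Mvd* 0.056, *Sqle* -0.048, *Insig1* 0.051, *Acaca* 0.096, *Eci1* 0.12, *Myh2* 1.37, *Mylpf* 4.15, *Tek* 0.72, *Pgc* 1.90 and *Cyp7a1* -0.078. With 1 array left out, the range was -0.085 to 0.21 for *Hmgcs1*, -0.14 to 0.020 for *Mvk*, -0.21 to 0.014 for *Fdps*, -0.031 to 0.042 for *Sqle*, -0.11 to 0.071 for *Tm7sf2*, -0.22 to 0.12 for *Nsdhl*, -0.35 to 0.024 for *Ebp*, -0.36 to 0.12 for *Insig1*, -0.33 to 0.036 for *Acaca*, -0.59 to 0.019 for *Scd2*, -0.075 to 0.15 for *Elovl5*, -0.16 to 0.18 for *Acss2* and -1.37 to 0.20 for *Pgc*. *Pnpla3* also lost its call without moderation (adjusted p = 0.237) and with the fibroblast mean (-1.47). Of the markers that passed, *Evpl*, *Sparc*, *Cd68* and *Lyz2* lost their calls with the replicate block (adjusted p between 0.0634 and 0.106). *Lyz2* also lost its call with the sex term (limma adjusted p = 0.076). In the females alone *Evpl* (limma adjusted p = 0.072) and *Cd68* (0.056) lost theirs. With 1 array left out, *Plin2* kept its call (highest adjusted p = 0.0453), and *Evpl*, *Col1a2*, *Sparc*, *Cd68* and *Lyz2* did not (highest 0.118 to 0.168). Without moderation (adjusted p = 0.146) and with the fibroblast mean (0.910) *Plin2* lost its call, as did those 5 in both settings.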
